A study of Mus musculus with 24 samples.

Results

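The translation initiation factors described here are the genes whose name on the array begins with Eif1 to Eif6, leaving out Eif2ak2, which gave 54 of the 29742 gene names. They were measured in the blood of 24 male C57BL/6J mice, each on its own array, in 4 groups of 6. Young (2 months) and old (21 months) mice were either unirradiated, which for this study means sham irradiated, or exposed once to 4 Gy of x-rays over the whole body. Blood was drawn by cardiac puncture 24 h later into a solution that lyses all its cells, so 1 value sums over every cell type in the blood. No group carried a genetic change, and all RNA had been depleted of globin transcripts.

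Initiation is the stage at which a ribosome is brought to the start codon of an mRNA. The complex eIF2 carries the initiator tRNA and GTP, and eIF2B recharges it with GTP afterwards. The eIF2 alpha kinases phosphorylate eIF2 under stress, which blocks eIF2B and lowers the making of most proteins. The large complex eIF3 sits on the small ribosomal subunit. The cap complex eIF4F (the cap-binding protein eIF4E, the scaffold eIF4G and the helicase eIF4A) recruits that subunit to the 5′ end of the mRNA, and the 4E-binding proteins hold eIF4E away from eIF4G unless the kinase mTOR has phosphorylated them. Lymphocytes, which divide and make much protein once activated, are among the most radiation-sensitive cells of the blood.

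Each value is a log2 signal minus the median log2 signal of its array, so 0 is the middle of all probes on that array and a difference of 1 is a factor of 2. Levels of different genes come from different probes and are not set against each other. Of the 54 members, 52 passed the filter on dim probes. The germ-line cap-binding gene Eif4e1b and Eif5b, whose product joins the ribosomal subunits, did not pass, and neither was well above background in any mouse (0 of 6 in each group). The 48 members that also varied by 1.5-fold from their median in at least 5 arrays were tested, among 17805 genes. A change was called where the p of limma's moderated test was below 0.005 and the Benjamini-Hochberg adjusted p over all 17805 genes was below 0.05.

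The measurements rest on 60-base probes, and the first 30 bases of those for the members that the results turn on are given here, 5′ to 3′, with the mm9 position of the whole probe as the array files state it. Eif4ebp1 and Eif4e are shown as repressor and target, Eif2ak1 and Eif2ak4 as kinases that went different ways, and Eif2s1 because its probes gave different sizes of change.
Eif4ebp1, chr8:28385887-28385946, plus strand: cagcctccggagcacacccatctttcctta
Eif4e, chr3:138219236-138219295, plus strand: caccataattacattcctaactagaattag
Eif2ak1, chr5:144662840-144662899, plus strand: tgtacatttccaacccttagtgaggacagg
Eif2ak4, chr2:118300892-118300951, plus strand: gctgtcctacaaagctgagctttgtcgggt
Eif2s1, tested probe, chr12:79987922-79987981, plus strand: taattccagtacttgggaggctagcctagt
Eif2s1, brightest probe, chr12:79986224-79986283, plus strand: ccagggactccaaacacaaacaatcccaat

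Before the results, some facts about the arrays are needed. Between 43.9% and 64.4% of probes were well above background per array, and the median signal ranged from 8.66 to 44.8. Old irradiated replicates 4 and 6 stood apart from the other old irradiated mice but not from each other: their values differed from each other with an SD of 0.31, against a median of 1.67 over all pairs of that group. Their mean over 10 erythroid markers was 8.59 and 8.60, against 4.33 to 5.48 in the other 4 mice. A list of 11 hepatocyte markers, which blood cells should lack, averaged 6.31 to 10.2 in 7 arrays (young unirradiated replicate 5, young irradiated replicates 2, 4 and 5, old irradiated replicates 2, 3 and 5). In old unirradiated mice the same list averaged -1.85 to -1.31 and 8 of its genes were well above background in no mouse. In 5 pairs of arrays within a group the SD of the difference was below 0.32, the lowest being 0.18 for old unirradiated replicates 1 and 6, against an SD of 0.08 between repeat spots within arrays. Young and old mice were scanned on different days and slides, so age cannot be told apart from them. Of the 3 slides of each age, 1 held both unirradiated and irradiated mice, 2 of each.

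In young mice, the initiation factors changed little as a set, and the largest called rise and falls were in a repressor, a GTPase activator and a kinase. Of 48 tested members, 1 was higher after 4 Gy (2.08%, against 14.3% of all genes) and 8 were lower (16.7%, against 21.1% of all genes). The median change of the members was -0.34, beside -0.20 over all genes, and 39 of 48 were below 0. With another background correction (normexp) these medians were +0.18 and +0.21, so the direction of the young median rests on the correction. No member was called there, beside 6.67% of all genes higher and 0.42% lower. The member that rose was Eif4ebp1, a 4E-binding protein. The 8 that fell were Eif5, Eif2ak4, Eif3f, Eif3e, Eif3i, Eif3j1, Eif4enif1 and Eif4ebp3. For 8 of these 9 genes no irradiated mouse reached into the range of the unirradiated ones, the exception being Eif3e. Over all genes, 9.46% lay wholly higher and 15.2% wholly lower in irradiated mice, as did 65.2% of the genes called higher and 70.2% of those called lower.

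In old mice, more members passed as lower. Again 1 of 48 was higher (2.08%, against 7.49% of all genes), and it was again Eif4ebp1, while 20 were lower (41.7%, against 17.4% of all genes). The median change was -1.07 for the members and -0.26 for all genes, and 41 of 48 members were below 0. With normexp 0 members were called, beside 0.03% of all genes higher and 0.03% lower. The member median there was -0.18, beside +0.23 over all genes. In the deposited values 1 of 42 rose and 10 fell, beside 8.61% and 7.96% of all genes. The 20 that fell were all 5 eIF2B subunits, 8 of 14 eIF3 subunits, Eif2s1, Eif2s2, Eif2ak4, Eif4e, Eif6, Eif2a and Eif4a3. The groups did not overlap in 19 of these 20, the exception being Eif2a, while 16.7% of all genes and 81.8% of the genes called lower lay wholly lower in irradiated mice. Old irradiated replicates 4 and 6 held the 2 lowest values in 15 of the 20. Without them all 20 still passed as lower, but the member median was -0.79, beside -0.30 over all genes, and Eif2b1, Eif2b2, Eif2b3, Eif2b4, Eif3b and Eif6 had changes smaller by over 1.5 times. Eif2ak4, Eif3e, Eif3f and Eif3i fell at both ages, and 41 of the 48 members had a lower log2 change in old than in young mice.

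**Figure D1:**
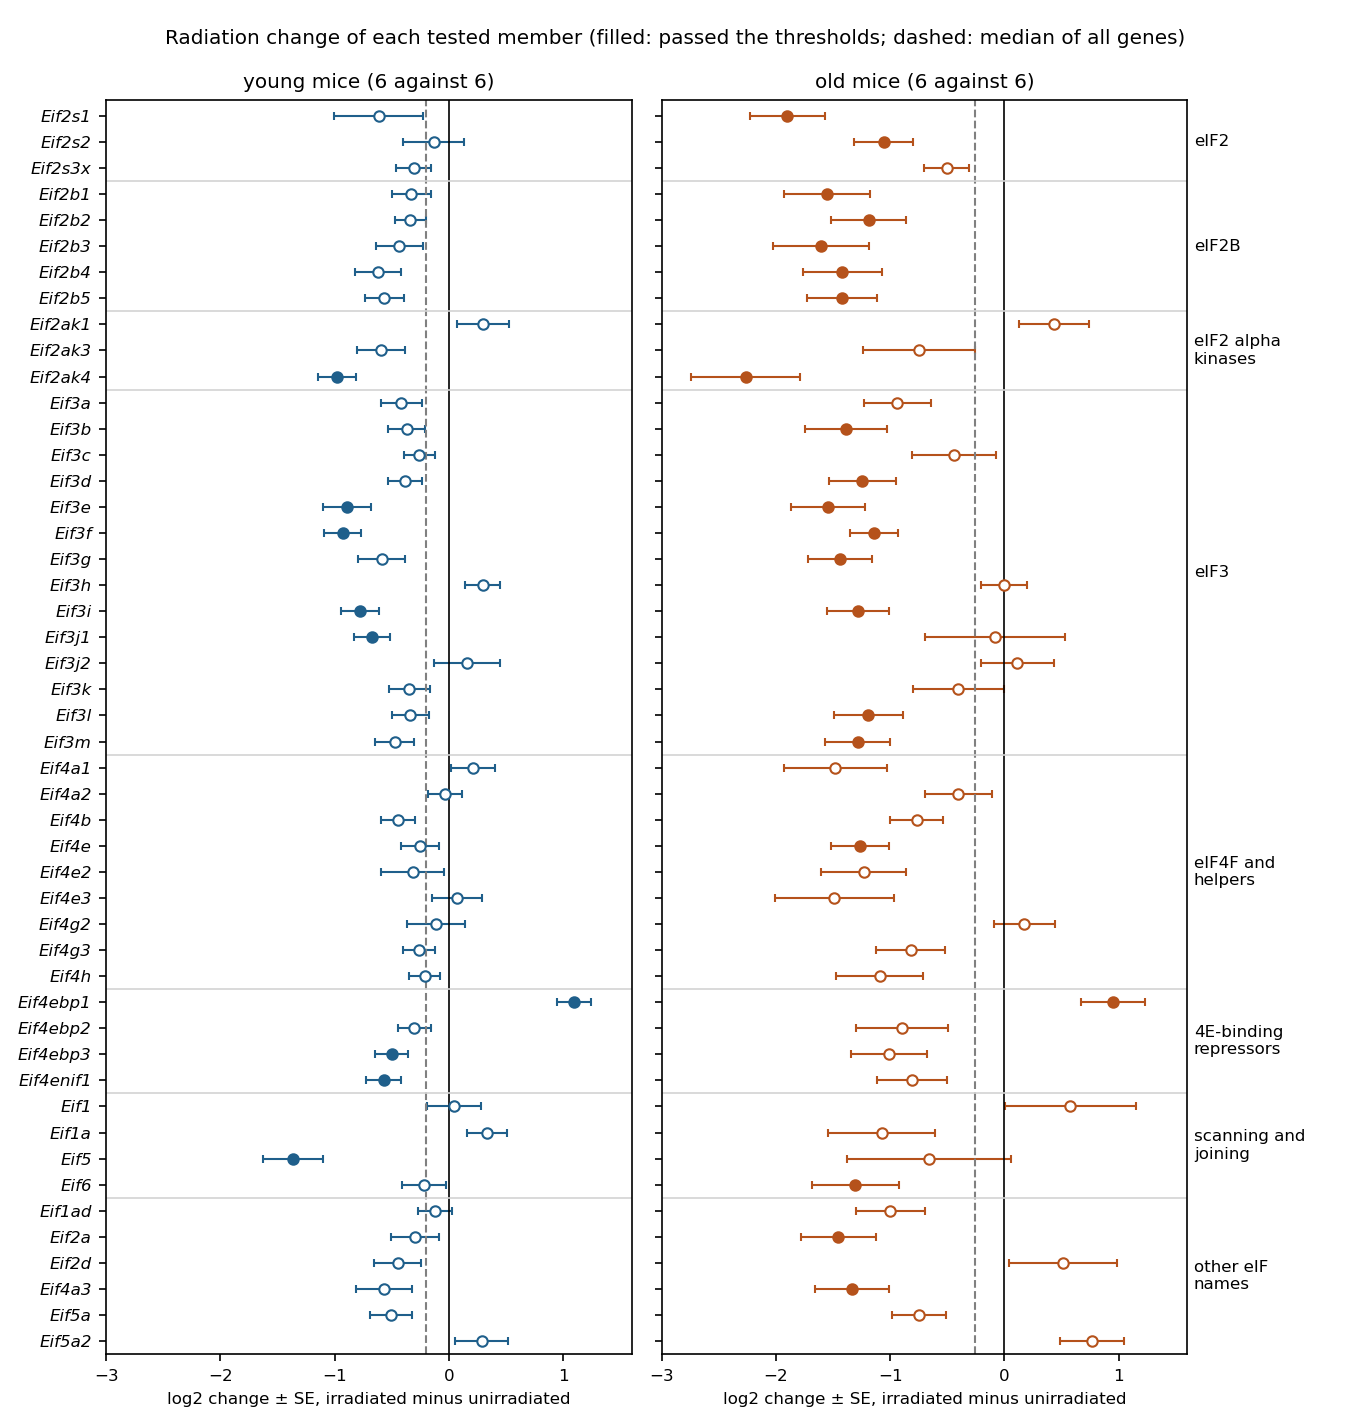
Log2 change of each of the 48 tested members after 4 Gy in young mice (left) and old mice (right), grouped by complex, on an axis from lower to higher in irradiated mice. Points are differences of group means with their SE from limma (6 against 6 mice), filled where the thresholds were passed (9 on the left, 21 on the right), and the dashed line is the median of all genes. The eIF2B subunits lie between -1.61 and -1.19 in old mice and between -0.62 and -0.33 in young mice.

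The difference between the ages did not itself pass the thresholds. In the interaction fit over 24 arrays, 0 of 48 members and 0 of 17805 genes (0%) were called by limma, although 20 members and 4197 genes had an unadjusted p below 0.05. The lowest adjusted p was 0.11 among the members and 0.06 among all genes. The median interaction was -0.62 for members and -0.24 for all genes. With the 7 arrays of high hepatocyte markers left out, 13 members were called, each with a lower change in old mice. Of all genes, 1451 (8.15%) were called there with a higher and 1789 (10.05%) with a lower change. That setting leaves old irradiated replicates 1, 4 and 6, so 2 of the 3 old irradiated arrays are the alike pair that stands apart.

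Slides limit these radiation counts. With slide as a block, which leaves 2 against 2 mice on 1 slide per age, 1 member was higher and 0 lower in young mice (4.62% and 5.62% of all genes), and 0 were called in old mice (1.97% and 0.81%). The counts also moved with the arrays that stood apart. Without old irradiated replicates 4 and 6, 0 members were higher and 28 lower in old mice, beside 11.7% and 22.7% of all genes. Without the arrays of high hepatocyte markers, 2 were higher and 16 lower in young mice, beside 14.4% and 20.6% of all genes, and 2 were higher and 28 lower in old mice, beside 15.8% and 24.4%. The old counts again rest on replicates 1, 4 and 6.

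Markers of blood cell types also changed after irradiation, with called counts that differed between the ages. Whether these changes differed between the ages was not tested. B cell markers fell in 10 of 10 genes in young and 9 of 10 in old mice, with a median change of -2.56 and -3.84. T cell markers fell in 8 of 10 genes in young mice and 1 of 10 in old mice. Their mean per mouse went from 5.97 to 6.43 in unirradiated young mice to 3.84 to 5.57 in irradiated ones, and from 5.71 to 7.32 to 5.32 to 6.41 in old mice. Platelet markers rose in 10 of 10 genes at both ages. Monocyte and macrophage markers rose in 7 of 10 genes and fell in 1 in young mice. In old mice 1 of these rose and 2 fell, and the median changes were +1.86 and -0.02. Erythroid markers fell in 7 of 10 genes in young and 0 of 10 in old mice, and 1 rose at each age. Their median changes were -2.05 and -1.38. In old irradiated replicates 4 and 6 the erythroid mean was 8.59 and 8.60, and in the others 4.33 to 5.48. Old unirradiated mice read 6.18 to 7.74. The monocyte and macrophage mean was 4.02 and 4.10 in that pair, 4.85 in replicate 1 and 6.90 to 7.41 in replicates 2, 3 and 5. Old unirradiated mice read 4.30 to 6.23 for that list, so the old counts of both lists mix unlike mice. Neutrophil markers rose in 5 of 10 genes in young and 0 of 10 in old mice. Of 8 tested hepatocyte markers, 0 rose in young and 7 in old mice. No list was without signal: every B cell, T cell and platelet marker was well above background in at least 1 mouse of each group. In whole blood, fewer cells of a type and less RNA per cell cannot be told apart, and the part of the markers in the changes of the members was not tested.

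Among the subunits of eIF2 itself, none passed the thresholds in young mice (0 of 3 tested, log2 changes -0.62 to -0.13), beside 21.1% of all genes lower. In old mice 2 of 3 fell, beside 17.4% of all genes. Neither of the 2 passed on the second scale described with the age comparison (Eif2s1 -0.52, Eif2s2 -0.44, read there by their brightest probes). For Eif2s1, the alpha subunit that the stress kinases phosphorylate, the tested probe read 0.05, 0.69 and 0.91 (lowest, median and highest) in old unirradiated mice and -1.92, -1.56 and -0.26 in old irradiated mice, so the groups did not overlap. This was a log2 change of -1.90 (SE 0.33), or 3.73-fold lower, with a limma adjusted p of 0.0015. That probe was well above background in 2 of 6 old irradiated mice, and the brightest probe of the gene, which did not vary enough to be tested in the same way, changed by -0.86. The beta subunit Eif2s2 changed by -1.06 (SE 0.26) on the tested probe, and by -0.79 on its brightest probe, which did not pass. The gamma subunit has an X-linked and a Y-linked gene, Eif2s3x and Eif2s3y. Their changes in old mice were -0.51 (SE 0.20) and -0.56 (SE 0.19), and neither passed.

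In the eIF2B complex every subunit fell in old mice, beside 17.4% of all genes. The 5 changes were falls by 1.19 (Eif2b2), 1.42 (Eif2b4), 1.42 (Eif2b5), 1.55 (Eif2b1) and 1.61 (Eif2b3) on the log2 scale. Eif2b5, the catalytic epsilon subunit, read 3.02, 3.44 and 3.77 in old unirradiated mice and 1.11, 2.15 and 2.75 in old irradiated mice, with no overlap (change -1.42, SE 0.30, limma adjusted p = 0.0042). Eif2b2 read 6.44, 6.64 and 6.74 and then 4.42, 5.88 and 5.99. Eif2b1, a regulatory subunit, read 3.76, 3.93 and 4.32 and then 1.25, 2.71 and 3.40. For all 5 subunits the highest irradiated old mouse thus lay below the lowest unirradiated one. In young mice the same genes had changes of -0.62 to -0.33 and 0 of 5 passed, beside 21.1% of all genes lower. Without old irradiated replicates 4 and 6 the changes were -1.05 (Eif2b3), -1.05 (Eif2b5), -0.99 (Eif2b1), -0.90 (Eif2b4) and -0.69 (Eif2b2), and all 5 still passed. The second probe of Eif2b3 changed by -0.84 in old mice.

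The eIF2 alpha kinases did not move together. Eif2ak4 (GCN2), which responds to uncharged tRNA, read 2.74, 3.29 and 3.71 in young unirradiated mice and 2.19, 2.25 and 2.44 in young irradiated mice, a change of -0.98 (SE 0.16, limma adjusted p = 0.00039). In old mice it went from 3.30, 4.19 and 4.43 to 0.34, 2.09 and 3.07, a change of -2.27 (SE 0.48, adjusted p = 0.0038), or 4.81-fold lower. This was the largest called fall among the members in old mice, and the groups did not overlap at either age. The lowest old values, 0.34 and 0.44, were those of replicates 4 and 6, and without them the change was -1.55. The other 2 probes of Eif2ak4 changed by -1.09 and -0.69 in young mice, both passing, and by -1.41 and -1.48 in old mice, of which the second passed. Eif2ak1 (HRI), a heme-regulated kinase of red cell precursors, changed by +0.30 (SE 0.23) and +0.44 (SE 0.30), and Eif2ak3 (PERK), the kinase of the endoplasmic reticulum, by -0.60 (SE 0.21) and -0.75 (SE 0.49). None of these passed. Without old irradiated replicates 4 and 6 the old changes of Eif2ak1 and Eif2ak3 were +0.05 and +0.06.

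Of the 14 eIF3 subunits, 4 fell in young mice and 8 in old mice, and 0 rose. Of all genes, 21.1% were lower and 14.3% higher in young mice, and 17.4% and 7.49% in old mice. Eif3e read 3.88, 4.73 and 5.07 in young unirradiated mice and 3.27, 3.76 and 4.07 in irradiated ones, with an overlap (change -0.89, SE 0.21, limma adjusted p = 0.0037). In old mice it went from 4.81, 5.52 and 6.05 to 3.18, 4.07 and 4.78, with no overlap (change -1.54, SE 0.32, adjusted p = 0.0036). Eif3f, a subunit that pairs with Eif3h in the complex, went from 6.63, 6.93 and 7.19 to 5.60, 5.99 and 6.46 in young mice (change -0.93, SE 0.16, adjusted p = 0.00054) and from 7.59, 7.75 and 8.27 to 6.53, 6.75 and 6.88 in old mice (change -1.14, SE 0.21, adjusted p = 0.0020).

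Other eIF3 subunits filled the range between these and no change. Eif3i changed by -0.77 (SE 0.17) in young and -1.28 (SE 0.27) in old mice and passed in both (1 young unirradiated mouse had no value for it). The changes of Eif3b, Eif3d, Eif3g, Eif3l and Eif3m in old mice were between -1.44 and -1.19, and all 5 passed. Eif3a changed by -0.94, Eif3c by -0.44 and Eif3k by -0.41 in old mice, and none passed. In Eif3c and Eif3k replicates 4 and 6 were the 2 highest irradiated mice, and without them the changes were -1.01 for both and passed. Eif3h, named here after its values were seen because it is that partner of Eif3f, read 9.59, 9.85 and 10.1 in old unirradiated mice and 9.58, 9.86 and 10.1 in irradiated mice, with a difference of the means far below its SE of 0.20. In young mice Eif3h changed by +0.30 (SE 0.15), which did not pass. Eif3j1, the loosely bound j subunit, fell in young mice (change -0.67, SE 0.16, adjusted p = 0.0040) and changed by -0.08 (SE 0.61) in old mice, where replicates 4 and 6 read 6.43 and 6.56 and the other 4 irradiated mice 3.12 to 3.71. Without that pair the change was -1.13 and passed. Its second, dimmer probe went differently, with -0.06 in young mice, which did not pass, and -1.08 in old mice, which did.

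**Figure D2:**
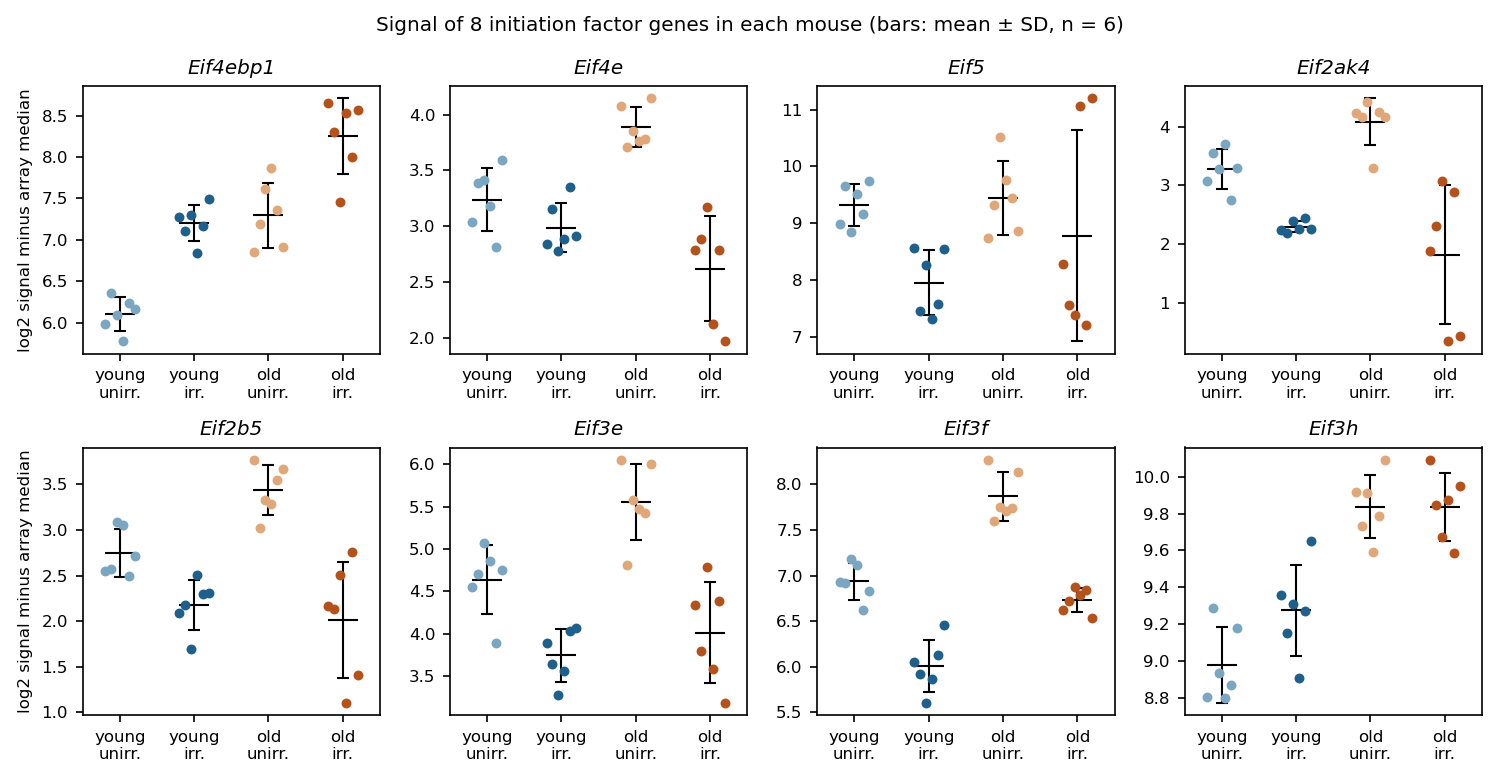
Log2 signal minus the array median of Eif4ebp1, Eif4e, Eif5, Eif2ak4, Eif2b5, Eif3e, Eif3f and Eif3h in each mouse of the 4 groups, each point 1 mouse and the bars mean ± SD (n = 6); the vertical axes differ between genes. Eif4ebp1 rose after irradiation at both ages while Eif2ak4, Eif2b5, Eif3e and Eif3f lay lower in irradiated old mice, and Eif5 is high in 2 old irradiated mice (11.1 and 11.2).

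Around the cap, the binding protein and its repressor went apart in old mice. Eif4ebp1 read 5.77, 6.13 and 6.36 in young unirradiated mice and 6.84, 7.22 and 7.49 in irradiated mice, with no overlap. The change was +1.10 (SE 0.15), or 2.14-fold higher, with a limma adjusted p of 9.5e-05, the lowest of the members in that comparison. In old mice it went from 6.86, 7.27 and 7.86 to 7.45, 8.42 and 8.66, with an overlap (change +0.95, SE 0.28, 1.94-fold higher, adjusted p = 0.019). The call in young mice held with slide as a block (+0.99), and that in old mice did not (+1.34) and was also lost without replicates 4 and 6 (+0.80).

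Eif4e, the cap-binding protein itself, went the other way in old mice, from 3.71, 3.82 and 4.15 to 1.97, 2.79 and 3.17, with no overlap (change -1.27, SE 0.25, limma adjusted p = 0.0030). In young mice its change of -0.25 (SE 0.16) did not pass. The other repressors did not follow Eif4ebp1. Eif4ebp2 changed by -0.30 and -0.90 in young and old mice, and neither passed. Eif4ebp3 fell in young mice (change -0.50, SE 0.14, adjusted p = 0.012), as did Eif4enif1 (4E-T), which carries eIF4E into the nucleus (change -0.57, SE 0.15, adjusted p = 0.0083). In old mice these changed by -1.01 and -0.81 and did not pass.

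The scaffolds and helicases of eIF4F gave 0 calls in either direction in young mice and only Eif4e in old mice (9 tested). Beside them, 21.1% of all genes were lower and 14.3% higher in young mice, and 17.4% and 7.49% in old mice. Eif4a1, the main helicase, changed by +0.21 (SE 0.19) in young and -1.48 (SE 0.45) in old mice, and Eif4a2 by -0.04 (SE 0.15) and -0.40 (SE 0.29). Without old irradiated replicates 4 and 6, Eif4a1 changed by -0.76 in old mice and passed. Eif4g1, the main scaffold, varied too little for the test on 17805 genes. Without that filter it changed by +0.36 (SE 0.15) in young and -0.07 (SE 0.26) in old mice. Eif4g2, which cannot bind eIF4E, changed by -0.11 and +0.18, and Eif4g3 by -0.26 and -0.82. None of these 3 scaffolds passed. Eif4e2, a relative of eIF4E, changed by -1.23 (SE 0.37) in old mice on the tested probe and by -0.41 on its brightest probe, neither of which passed. Eif4e3, also of the Eif4e genes, changed by +0.07 in young and -1.49 in old mice, and neither passed. Without old irradiated replicates 4 and 6 its old change was -0.64 and passed.

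Among the factors of scanning and subunit joining, Eif5, the GTPase activator of eIF2, fell most in young mice. It went from 8.85, 9.33 and 9.75 to 7.31, 7.92 and 8.56, with no overlap (change -1.36, SE 0.26, 2.58-fold lower, limma adjusted p = 0.0011), and a second probe changed by -1.52. In old mice the groups overlapped, with 8.74, 9.38 and 10.5 in unirradiated and 7.21, 7.92 and 11.2 in irradiated mice (change -0.66, SE 0.72). The 2 highest irradiated values, 11.1 and 11.2, were replicates 4 and 6. The other 4 irradiated mice, 7.21 to 8.28, lay below every unirradiated old mouse, and without the pair the change was -1.84 and passed. Eif6, which keeps the ribosomal subunits apart, fell in old mice (change -1.31, SE 0.38, adjusted p = 0.018), by 0.72 without that pair, and did not pass on the second scale. The start-codon factor Eif1 changed by +0.04 (SE 0.24) and +0.58 (SE 0.57), the second turning to -0.29 without the pair, and its copy Eif1b, below the 1.5-fold filter, by -0.02 (SE 0.14) and -0.47 (SE 0.26).

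Of 6 further genes with an eIF name, 2 fell in old mice, beside 17.4% of all genes. They were Eif2a, an alternative carrier of initiator tRNA (change -1.45, SE 0.33), and Eif4a3, a helicase of the exon junction complex (change -1.33, SE 0.32). Eif5a, which in spite of its name acts mainly in elongation, changed by -0.51 (SE 0.18) in young and -0.75 (SE 0.23) in old mice, and its relative Eif5a2 by +0.29 (SE 0.23) and +0.77 (SE 0.28). None of these changes of Eif5a and Eif5a2 passed. Without old irradiated replicates 4 and 6, Eif5a changed by -0.87 in old mice and passed, while Eif5a2 changed by +0.43 and did not.

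The difference between a gene and its partner on 1 array does not depend on how arrays are scaled to each other. In all, 11 such pairs were compared in 3 comparisons each, 33 exact two-sided permutation tests of 6 against 6 mice, in which the lowest possible p is 0.0022. Each gene was read by its brightest probe, which for Eif4e2 is not the probe of the values above. The size of the difference itself mixes the brightness of both probes, so only its shift between groups is read. An adjusted p below 0.05 was reached by 12 shifts.

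The kinases Eif2ak1 and Eif2ak4 shifted against each other at both ages. Their log2 difference was -0.47, -0.05 and 0.06 (lowest, median and highest) in young unirradiated and 0.46, 1.04 and 1.86 in young irradiated mice, with no overlap. The shift was +1.28 (exact permutation p = 0.0022, adjusted 0.010). In old mice the difference went from -0.54, -0.28 and 1.001 to 0.68, 2.02 and 4.81, a shift of +2.70 (exact permutation p = 0.0043, adjusted 0.014), with an overlap. Without old irradiated replicates 4 and 6, which held the highest values, it was +1.6 and still passed.

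Eif4ebp1 rose relative to Eif4e at both ages. The difference went from 2.57, 2.82 and 3.42 to 3.82, 4.20 and 4.58 in young mice and from 2.77, 3.53 and 4.10 to 4.28, 5.64 and 6.60 in old mice, with no overlap in either. The shifts were +1.35 and +2.22 (exact permutation p = 0.0022 and adjusted p = 0.010 for both). Within the slide that held both groups (2 against 2 mice) they were +1.20 and +2.47. In the authors' normalized table, where another probe can stand for a gene, they were +0.75 and +0.62 and did not pass. Whether the shift differed between the ages was not tested.

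Eif4g3 fell relative to the main scaffold Eif4g1 at both ages, by 0.62 in young mice (exact permutation p = 0.0043, adjusted 0.014) and by 0.75 in old mice (p = 0.0022 by the same permutation, adjusted 0.010). Without the arrays of high hepatocyte markers the young shift was -0.33 and did not pass. In old mice only, Eif4a2 rose relative to Eif4a1 (+1.08), Eif5a2 relative to Eif5a (+1.52) and Eif4e2 relative to Eif4e (+0.86), each with an exact permutation p of 0.0022 and an adjusted p of 0.010. The corresponding shifts in young mice were -0.25, +0.80 and +0.29 and did not pass, and the difference between ages was not tested. The last of the old shifts turned to -0.73 in the authors' table. The X- and Y-linked copies of eIF2 gamma kept their difference within -0.05 and +0.11 of the unirradiated mice (exact permutation p = 0.57 in old and 0.20 in young mice).

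**Figure D3:**
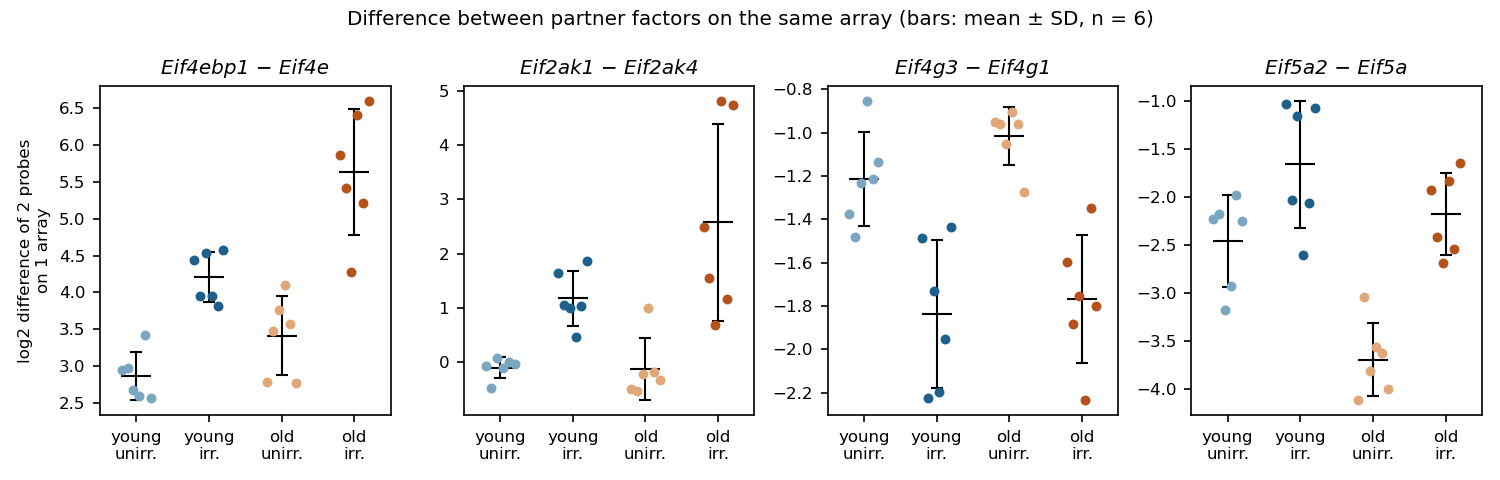
Log2 difference between 2 partner genes on the same array in each mouse, for Eif4ebp1 minus Eif4e, Eif2ak1 minus Eif2ak4, Eif4g3 minus Eif4g1 and Eif5a2 minus Eif5a, each point 1 mouse and the bars mean ± SD (n = 6). The first 2 differences are higher and the third is lower in irradiated mice of both ages, and Eif5a2 minus Eif5a is lowest in old unirradiated mice (median -3.72).

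Before irradiation, the factors read higher in old than in young mice, but how much higher depended on the scaling. Relative to the median of all probes, 40 of 48 members were higher (83.3%, against 48.5% of all genes) and 0 were lower (0%, against 15.4% of all genes), and all genes shifted by a median of +0.63 with the members at +0.83. A second scale took each array's median over probes above background on all arrays and dropped the 1.5-fold filter, which left 52 members among 18737 genes and a median of all genes of +0.02. On that scale 5 members were higher (9.62%, against 8.84% of all genes) and 2 lower (3.85%, against 23.2% of all genes), and the member median was +0.22. The 5 were Eif1a, Eif3c, Eif4a1, Eif4ebp2 and Eif4g3, and the 2 were Eif2d and Eif5a2. For Eif2d the probes went different ways. On the first scale the probe used changed by -0.38, which did not pass, and a second, dimmer probe by +0.79, which did. The old unirradiated mice also serve as the controls of the radiation comparison in old mice, so these comparisons are not independent of each other.

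The radiation counts on the second scale were as follows. In young mice 1 of 52 members was higher (1.92%, against 14.8% of all genes) and 7 were lower (13.5%, against 20.8%). In old mice 2 were higher (3.85%, against 11.3%) and 16 lower (30.8%, against 11.8%). By complex, the eIF2 subunits went from 2 falls to 0 in old mice, the scanning and joining factors from 1 to 0 and eIF3 from 8 to 7, while eIF2B stayed at 5 of 5. The member median was -0.27 in young and -0.53 in old mice, beside -0.14 and +0.11 over all genes.

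Single members are given on both scales. Eif4ebp1 read +1.20 (SE 0.18) on the first scale, the largest of the members, and +0.61 (SE 0.19) on the second, where it did not pass. Eif4ebp2 read +1.03 (SE 0.11) and +0.45 (SE 0.09) and passed on both, as did Eif4a1 with +1.01 (SE 0.15) and +0.42 (SE 0.12). Eif1a, which binds the decoding site during scanning, read +1.07 (SE 0.13) and +0.49 (SE 0.10), and passed on both. The tested probes of Eif4e2 (+1.12) and Eif2s1 (+1.07) passed on the first scale, where the brightest probes of these genes changed by +0.73 and +0.66. On the second scale, read by those brightest probes, neither gene passed. The tested probe of Eif2s1 was well above background in 4 of 6 young unirradiated mice. Eif5a2 read -0.27 (SE 0.12) on the first scale and -0.86 (SE 0.12) on the second, and only the second value passed. Markers moved with age too: neutrophil markers were higher in 8 of 10 genes on the first scale and 6 of 10 on the second, platelet markers in 9 and 0 of 10, and hepatocyte markers were lower in 6 of 8 on both. Their part in the age changes was not tested.

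Free of scaling, 3 of the 11 partner differences shifted with age. Eif5a2 fell relative to Eif5a by 1.24, from -3.17, -2.24 and -1.98 in young to -4.11, -3.72 and -3.04 in old unirradiated mice (exact permutation p = 0.0043, adjusted 0.014). Eif4ebp2 rose relative to Eif4e by 0.38 (exact permutation p = 0.0065, adjusted 0.019). Eif4a2 fell relative to Eif4a1 by 0.30 (exact permutation p = 0.015, adjusted 0.042), which was +0.05 in the authors' table. Eif4ebp1 shifted by +0.55 relative to Eif4e, which did not pass (exact permutation p = 0.063, adjusted 0.13).

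**Figure D4:**
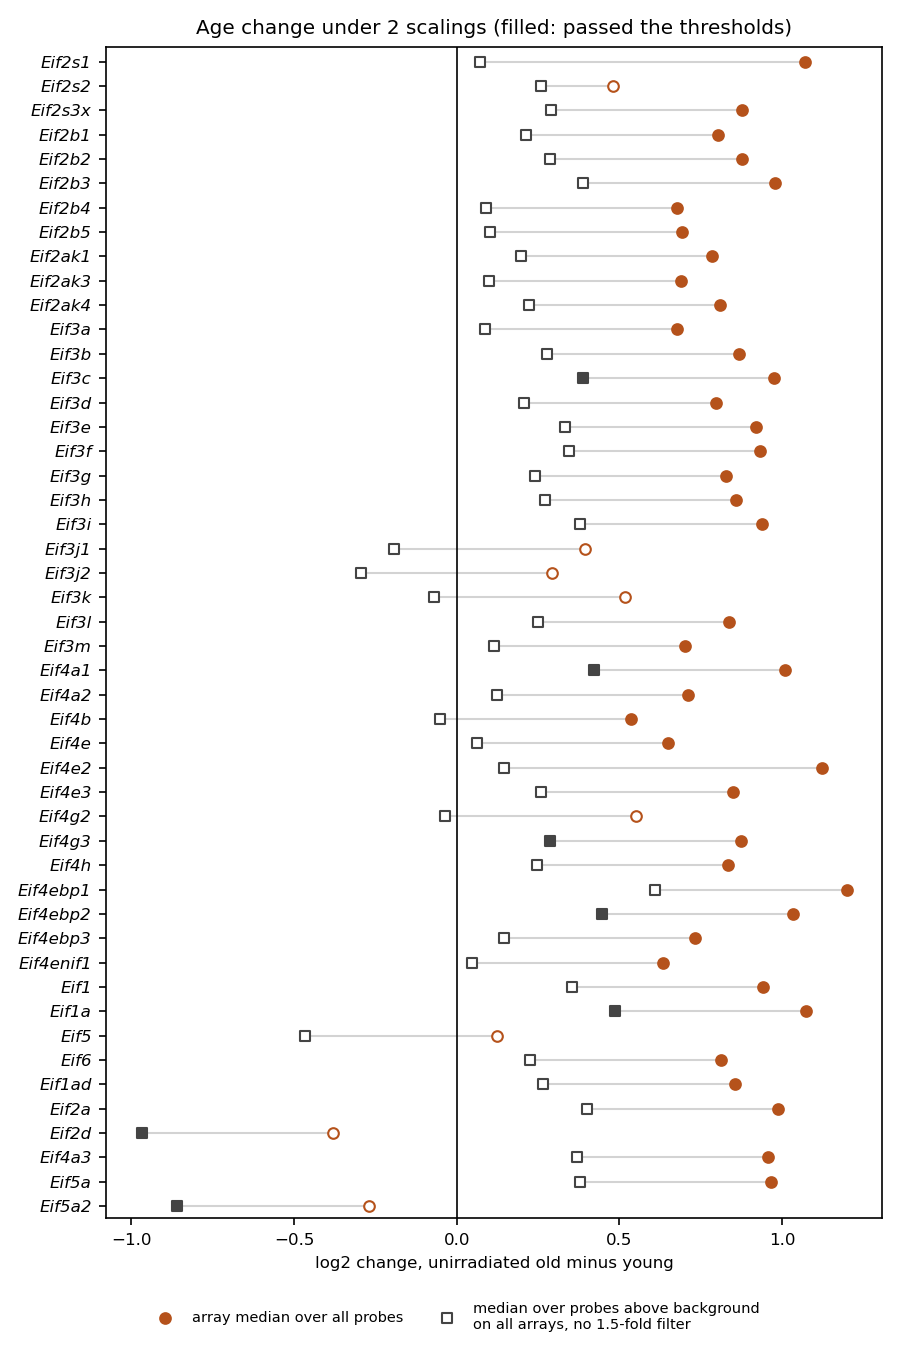
Log2 change between old and young unirradiated mice (6 against 6) for the 48 tested members on 2 scales: relative to each array's median over all probes (circles) and relative to its median over probes above background on all arrays, without the 1.5-fold filter (squares), filled where the thresholds were passed. Every circle lies to the right of its square, as the scales differ by a constant per array that is the same for every probe. For Eif2s1, Eif2s2 and Eif4e2 the circle and the square come from different probes. Filled are 40 circles but only 7 squares.

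The start of the transcript was examined because mRNAs of several translation factors begin with a pyrimidine tract, the element through which mTOR controls their translation. RefSeq start windows (GRCm38.p6) were at hand for 42 of the 54 members. A tract was taken as a C that is not preceded by a pyrimidine, begins within 5 bases of the annotated start and opens a run of at least 5 C or T bases, searched on the transcribed strand alone. It was present in 10 of 42 members (23.8%), against 14.5% of 27025 genes with a window. The windows shown are those of 4 of the 5 members with a tract that fell in old mice, Eif3b being the other. Each holds 30 bases from 10 before the start, and capitals mark the tract.
Eif3f, chr7:108934405-108934434, plus strand: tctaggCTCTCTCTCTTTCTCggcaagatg
Eif3l, chr15:79075213-79075242, plus strand: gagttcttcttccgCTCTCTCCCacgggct
Eif2b2, chr12:85219471-85219500, plus strand: ccgagcggaagttgaCCTCTCTCggcccgg
Eif2ak4, chr2:118388607-118388636, plus strand: gaggccccgCCCTCagttcggtcacggcgc
Eif3f carried the longest tract of the members, 15 bases. The 8 tested members with a tract had a median change of -0.35 in young and -1.16 in old mice, beside -0.35 and -0.94 for the 29 without one.

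Other genes of the pathway were read from lists. Of 15 partners of the initiation factors, 1 rose and 5 fell in young mice, and 0 rose and 5 fell in old mice. The falls were 33.3% of the list at each age, against 21.1% and 17.4% of all genes. The largest were Ppp1cb, a catalytic subunit of protein phosphatase 1 (-1.69), and the poly(A)-binding protein Pabpc4 (-1.55) in young mice, and the helicase Dhx29 (-1.57) and the ribosome recycling factor Abce1 (-1.48) in old mice. Of 10 elongation and termination factors, 0 rose at either age while 6 fell in young (60%) and 4 in old mice (40%), with the largest changes in Eef1e1 (-0.86) and Eef2 (-0.71) in young and Eef1e1 (-2.01) and Eefsec (-1.51) in old mice.

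Of 16 genes of mTORC1 signalling, 4 fell (25%, against 21.1% and 17.4% of all genes) and 0 rose at each age, led by Mtor (-1.09) and its partner Mlst8 (-0.97) in young mice and by the mTORC1 inhibitor Sesn1 (-1.96) and Mlst8 (-1.87) in old mice. Of 15 genes of the integrated stress response, 7 rose (46.7%, against 14.3% of all genes) and 1 fell in young mice, with a median change of +0.60. The transcription factor Atf5 (+2.13) and the RNA-activated kinase Eif2ak2 (+1.78) changed most. In old mice 0 of the 15 rose and 2 fell (13.3%), the serine synthesis enzymes Phgdh (-1.92) and Psat1 (-1.73), with a median of +0.08.

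Between unirradiated old and young mice the lists followed the scale. On the first scale 9 of 15 initiation partners, 6 of 10 elongation and termination factors, 10 of 16 genes of mTORC1 signalling and 12 of 15 genes of the integrated stress response were higher (60%, 60%, 62.5% and 80%, against 48.5% of all genes), and 1 was lower, Paip1, a partner of the poly(A)-binding protein. On the second scale these were 1 of 15, 1 of 10, 1 of 18 and 2 of 16, against 8.84% of all genes. The largest on the first scale were Larp1 (+1.22) and Mcts1 (+1.13) of the partners, Eef2k (+1.13) and Eef2 (+0.81) of elongation, Akt1 (+1.17) and Akt1s1 (+1.10) of mTORC1 signalling, and Asns (+1.81) and Atf5 (+1.62) of the stress response.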

How the data were processed

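Blood RNA of 24 mice was hybridised to single-colour (Cy3) Agilent arrays, 1 per mouse. The authors made the deposited intensity files with Feature Extraction 12.0.2, which subtracts background and does not scale arrays to each other. The log2 values of the table deposited by the authors had been filtered and normalized and served as an alternative.

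From the intensities, spots marked non-uniform were left out, and each log2 signal was centred on the median of the 43020 non-control spots of its array. Repeat spots were averaged. Probes that were non-uniform, or not positive and significant, on at least 25% of arrays were dropped (24130 of 39429 stayed). A 1.5-fold deviation from the probe's median was then required on at least 20% of arrays, and the brightest probe left stood for its gene. Fits used limma 3.58.1 in R 4.3.3, two-sided, on the 12 arrays of a comparison (24 for the interaction). Exact permutations used all 924 splits. The code was tested on simulated data. Signal over background and the number of mice limit precision, and p-values measure the spread between these mice.

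Members, lists and complexes were chosen with earlier results of these data known. Genes were picked for naming by rule, and some of them are given only by name, range or change. Per comparison, the rule took the 6 largest called rises and falls among members well above background in all mice of a group. It also took members called in opposite directions in 2 comparisons, all genes of partner pairs, and the 2 largest called changes of each pathway list. Sequences came from the array files and RefSeq. Figures were drawn with matplotlib 3.10.9.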

Additional observations from a re-analysis of the deposited data

Results flagged for a closer look

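In 5 of 112 groups of 6 mice (28 members in 4 groups each), 1 mouse lay far from the others: its gap to the nearest mouse was a larger share of the group's range than Dixon's critical value allows, which chance gives in about 5% of groups. Eif2a was 2.08 in old unirradiated replicate 2, with the next mouse at 2.75. In the same mouse Eif4g2 was 5.12 (next 5.93) and Eif5a 6.22 (next 6.87). Eif2ak4 was 3.30 in old unirradiated replicate 4 (next 4.16), and Eif4e3 was 0.11 in young unirradiated replicate 5 (next 0.85). All 5 were the lowest of their group.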

How the results depend on the processing

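In what follows, gap means the member median minus the median of all genes (-0.14 and -0.81 after irradiation in young and old mice, 0.20 for age). It kept its sign in each of these comparisons under every setting run, and causes were not tested. Settings chosen after seeing the data were the second scale without the 1.5-fold filter, leaving out old irradiated replicates 4 and 6 or the arrays of high hepatocyte markers, and averaging very similar arrays.

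In young mice 8 members fell and 1 rose. The falls were 14 of 36 with quantile normalization (23.1% of all genes fell) and 5 of 42 in the deposited values (13.5%). They were 3 of 48 in 1 fit of 24 arrays (10.9%), 0 with slide as a block (5.62%) and 5 with similar arrays averaged (14.6%). With normexp 0 rose and 0 fell (6.67% and 0.42% of all genes), with a gap of -0.0293. Without the hepatocyte-marker arrays 2 rose and 16 fell (14.4% and 20.6% of all genes), with a gap of -0.3934. The gap was -0.2412 with the median of detected probes and -0.3725 without the dim filter. Leaving out 1 mouse gave 6 to 15 falls, beside 17.5% to 21.8% of all genes, and gaps of -0.2137 to -0.08483. The 15 came when young irradiated replicate 4 was left out.

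In old mice 20 fell and 1 rose. The rises were 0 with quantile normalization (8.91% of all genes rose), normexp (0.03%), no dim filter (5.39%) and slide as a block (1.97%). They were also 0 with replicates 4 and 6 left out (11.7%) and similar arrays averaged (6.25%). On the second scale (11.3%) and without the hepatocyte-marker arrays (15.8%) they were 2. The falls were 13 with the median of detected probes, 0 with normexp, 10 in the deposited values, 32 in 1 fit of 24 arrays, 0 with slide as a block and 12 with similar arrays averaged. The gap was -1.077 with the 75th percentile, -0.9795 with quantiles, -1.17 with detected probes, -0.416 with normexp, -1.049 in the deposited values, -0.6389 without the 1.5-fold filter and on the second scale, and -0.7133 over well-detected probes. It was -0.6366 with slide as a block, -0.4937 without replicates 4 and 6, -1.231 without the hepatocyte-marker arrays and -0.6335 with similar arrays averaged. Leaving out 1 mouse gave 0 to 1 rises, 16 to 24 falls and gaps of -0.9478 to -0.63.

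For age, 40 rose and 0 fell. The rises were 4 of 33 with the 75th percentile (10.8% of all genes rose), 5 of 36 with quantiles (17.1%) and 3 of 32 with detected probes (7.74%). They were 0 of 48 with normexp (0%) and 1 of 42 in the deposited values (4.45%). In 1 fit of 24 arrays 21 of 48 rose (27.0%), and on the second scale 5 of 52 (8.84%). The falls were 2 with the 75th percentile (26.5% of all genes fell), quantiles (21.1%) and detected probes (28.1%). They were also 2 in the deposited values (21.5%) and on the second scale (23.2%). The gap was 0.3116 with the 75th percentile, 0.3131 with detected probes, 0.05966 with normexp, 0.5275 without the dim filter and 0.09618 over well-detected probes. Leaving out 1 mouse gave 36 to 40 rises (44.0% to 49.5% of all genes), 0 falls and gaps of 0.1879 to 0.2168. For the interaction, 13 members were called without the hepatocyte-marker arrays, all with a lower change in old mice. Beside them, 8.15% of all genes were called with a higher and 10.05% with a lower change. With 1 mouse left out 0 to 4 members were called. The 4 came when old irradiated replicate 3 was left out, all with a lower change. Of all genes, 261 (1.47%) were then called with a higher and 791 (4.44%) with a lower change.

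Of 33 partner shifts 12 passed, 5 in the deposited values and 11 to 14 with 1 mouse left out. In the deposited values Eif4e2 minus Eif4e after irradiation in old mice turned to -0.733 and Eif4a2 minus Eif4a1 with age to 0.04564. The replicate numbers do not pair the mice: deviations of same-numbered mice correlated at -0.29 to 0.34. With the replicate block, 1 member rose and 4 fell in young mice (13.0% and 15.4% of all genes). In old mice 0 rose and 17 fell (6.34% and 13.1%), and with age 34 rose and 0 fell (43.5% and 14.7%). In the interaction 0 members and 0% of all genes were called.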
